A study of Mus musculus with 11 samples.

Results

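The genes described here encode proteins that organise synapses, most of them secreted into the space between the cells: cerebellins, C1q-like proteins, neuronal pentraxins and neurexophilins. They are a named set of 10 genes, chosen by their log2 differences between the cell types on these same arrays, because C1ql3, Cbln4, Nptx2, Nxph1 and Nxph4 separate the types. A member is measured here if the array annotation pairs a probe set with its symbol alone, and the probe set with the highest mean stands for the gene. This left 9 of 10 members, out of 18193 genes with such a probe set. The annotation gives the 3 Nptxr probe sets a second symbol, Npcd, so Nptxr, the membrane-bound pentraxin receptor, has no value. The 9 measured members are covered by 17 probe sets.

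The samples are motor neurons sorted from mouse embryos, with RNA on 11 Affymetrix arrays, 1 a sample. Phrenic motor neurons, which drive the diaphragm, had 4 arrays. Lateral motor column neurons of the radial nerve, a nerve of the forelimb, had 3 arrays and are called LMC radial. Motor neurons of segments C3-C5 that carried the green reporter only had 4 arrays and are called C3-C5 GFP-only. All groups were embryos of strain C57/BL6 with the Hb9::GFP reporter, which marks motor neurons through the Hb9 (Mnx1) gene's regulatory sequence. Phrenic and LMC radial neurons were in addition filled with a rhodamine dextran through their nerve, so a group holds cells that the dye reached. Dye filling and cell type therefore cannot be told apart in comparisons with C3-C5 GFP-only neurons. The labels give no embryonic day, are silent on whether a group's arrays stem from different embryos, and name no segment for the LMC radial samples, so segment level and cell type cannot be told apart in comparisons with them. In sorted bulk RNA, fewer cells with a transcript and less transcript per cell cannot be told apart.

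Cerebellins and C1q-like proteins share the globular domain of complement C1q and assemble into multimers. Cerebellins bind neurexins on the axon terminal and can join them to glutamate receptors of the delta family across the cleft. C1q-like proteins bind the adhesion receptor Adgrb3 (BAI3), pentraxins gather AMPA-type glutamate receptors, and neurexophilins bind alpha-neurexins. Motor neurons could use such proteins at the synapses they receive, at their recurrent synapses in the spinal cord or in the periphery, which RNA of sorted cell bodies does not resolve.

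The values are log2 signals made by RMA, which corrects background, normalizes the arrays and summarises the probes of a set. Array medians lay between 4.48 and 4.63, so a mean below 5 is near the middle of all probe sets, where little signal stands above background. A fold against such a mean is given as at least the fold found with values below 5 raised to 5. Signals of different probe sets are not compared. Replicates 2 and 3 of the phrenic and of the C3-C5 GFP-only group had a 25th percentile of 3.18 to 3.20 and the other 7 arrays one of 3.26 to 3.38, which splits the arrays into a lower and a higher set. All LMC radial arrays are in the higher set.

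The arrays carried motor neuron RNA. Marker genes of other cells also gave signal in every group, and the source of that RNA was not tested. The mean of 7 motor neuron markers was 8.12 to 8.49 in phrenic, 7.49 to 7.78 in LMC radial and 8.37 to 8.62 in C3-C5 GFP-only arrays. Mnx1 and Isl1, transcription factors that define motor neurons, averaged 9.01 and 12.3 in phrenic, 8.14 and 9.63 in LMC radial and 9.07 and 12.0 in C3-C5 GFP-only neurons. Both were lower in LMC radial than in either other type by the limma test described below. Chat, which makes acetylcholine, averaged 5.48 in phrenic, 4.92 in LMC radial and 5.69 in C3-C5 GFP-only neurons and passed in no comparison. Isl2, a relative of Isl1 named after its values were seen, was lower in phrenic (mean 6.79, limma adjusted p = 0.0105) and in LMC radial (6.73, limma adjusted p = 0.01) than in C3-C5 GFP-only neurons (7.78). Of the 7 markers, 1 was lower in phrenic and 3 were lower in LMC radial than in C3-C5 GFP-only neurons, and 2 were higher in phrenic than in LMC radial neurons. The mean of 12 mesenchyme and cartilage markers was 5.58 to 7.36 in phrenic and 5.33 to 6.54 in LMC radial arrays, above all C3-C5 GFP-only arrays (4.75 to 5.22). Markers of cycling cells behaved likewise (4 genes, 6.03 to 8.41 in phrenic, 5.71 to 7.21 in LMC radial and 5.23 to 5.64 in C3-C5 GFP-only arrays). Phrenic replicate 4 had the highest mean of the mesenchyme, interneuron, progenitor and cycling cell lists. The interneuron list (10 genes) ranged from 4.57 to 6.10 in phrenic, 4.19 to 4.85 in LMC radial and 4.31 to 4.60 in C3-C5 GFP-only arrays, and the progenitor and glia list (7 genes) from 5.49 to 7.23, 5.52 to 6.04 and 5.37 to 5.59 in the same order of groups. The sensory neuron list (5 genes) overlapped in all groups (6.28 to 6.79 in phrenic, 6.51 to 6.77 in LMC radial and 6.49 to 6.82 in C3-C5 GFP-only arrays). Endothelial (5 genes) and macrophage (5 genes) lists stayed at 5.04 or below and 4.43 or below on all arrays, and the blood list (3 genes) overlapped in all groups (3.20 to 7.50 in phrenic, 4.71 to 7.78 in LMC radial and 6.21 to 7.01 in C3-C5 GFP-only arrays).

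**Figure D1:**
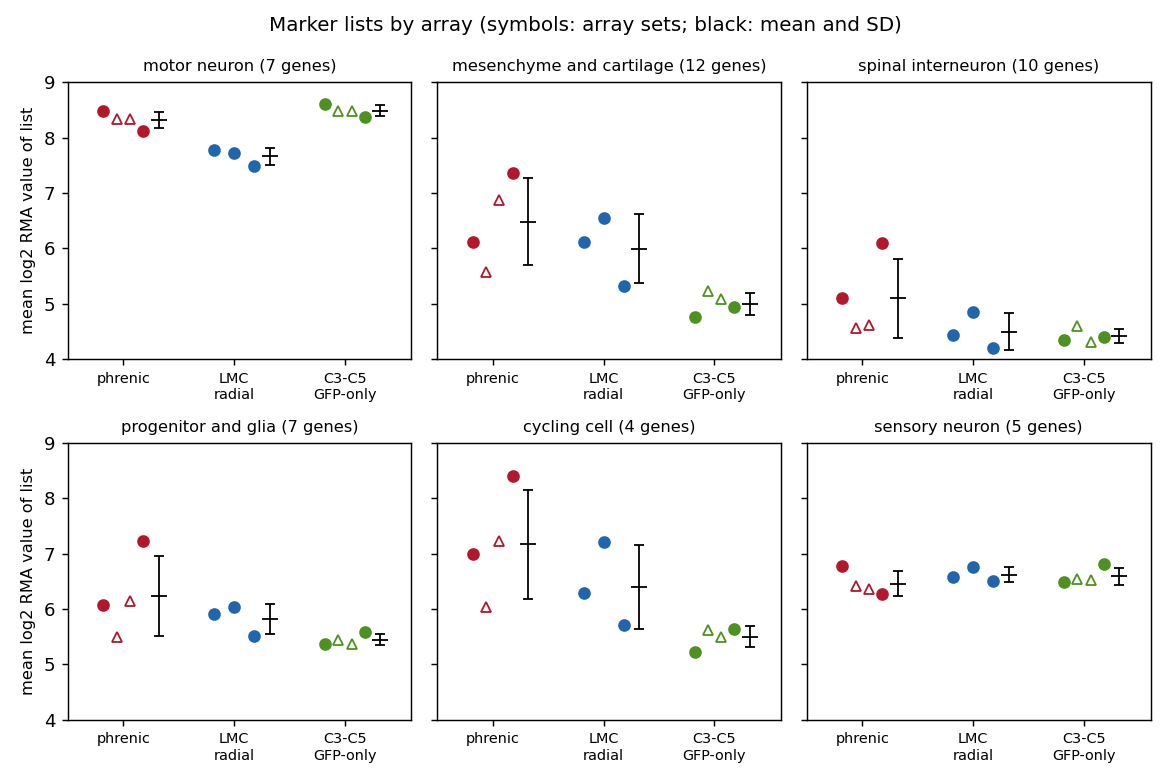
Mean log2 RMA value (vertical axis) of 6 marker lists on each array, for phrenic, LMC radial and C3-C5 GFP-only samples, with circles for the higher and triangles for the lower array set and bars for mean and SD. Phrenic replicate 4 is the highest point of the mesenchyme (7.36), interneuron (6.10), progenitor (7.23) and cycling cell (8.41) panels.

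Of the 9 genes, 4 were above background in some types and lowest in phrenic neurons. Cbln1, Cbln4, C1ql3 and Nxph1 were lower on every phrenic array than on every LMC radial and every C3-C5 GFP-only array. Cbln2 ran the other way, with its highest signal in phrenic and its lowest in LMC radial neurons. Nptx2 and Nxph4 were high in C3-C5 GFP-only neurons alone, the group without dye, and near background in the others. Between phrenic and C3-C5 GFP-only neurons the arrays of 8 of 9 members did not overlap, 7 lower and 1 higher, against 9.29% of all genes (4.44% lower and 4.85% higher). For phrenic against LMC radial neurons it was 7 of 9, 6 lower and 1 higher, against 19.3% of all genes (10.2% lower and 9.04% higher). The lower members include C1ql1 in both phrenic comparisons and Nptx2 against LMC radial neurons, where both means are below 5 and no difference is left with values below 5 raised to 5. For LMC radial against C3-C5 GFP-only neurons it was 6 of 9, 2 higher and 4 lower, against 22.9% (11.2% higher and 11.6% lower). The members were put together from these same contrasts, so these counts are a description, and members get no p-value below.

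The promoter windows of C1ql3, Cbln4 and Nxph1, genes that were low on all phrenic arrays, are printed to show the DNA at their starts. They are the members found in a search of the RefSeq promoter table (build GRCm38.p6), 3 of 9. The search left a chromosome out, so a member with a window there would be missing. No window was found for Cbln2, the member with its highest signal in phrenic neurons, or for the other members. The 3 windows therefore do not stand for the 9 members, and none is from a gene with another pattern. Each runs from 250 bases before to 50 bases after a RefSeq start, 5′ to 3′ on the gene's strand, and capitals mark GC boxes, the letters GGGCGG or CCGCCC.
C1ql3, chr2:13010815-13011114, minus strand: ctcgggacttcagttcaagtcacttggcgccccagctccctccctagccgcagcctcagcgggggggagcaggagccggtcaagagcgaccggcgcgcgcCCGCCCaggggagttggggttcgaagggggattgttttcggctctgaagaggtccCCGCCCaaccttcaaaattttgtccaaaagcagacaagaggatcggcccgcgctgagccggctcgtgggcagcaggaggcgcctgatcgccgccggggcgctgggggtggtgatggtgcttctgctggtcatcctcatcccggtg
Cbln4, chr2:172043417-172043716, minus strand: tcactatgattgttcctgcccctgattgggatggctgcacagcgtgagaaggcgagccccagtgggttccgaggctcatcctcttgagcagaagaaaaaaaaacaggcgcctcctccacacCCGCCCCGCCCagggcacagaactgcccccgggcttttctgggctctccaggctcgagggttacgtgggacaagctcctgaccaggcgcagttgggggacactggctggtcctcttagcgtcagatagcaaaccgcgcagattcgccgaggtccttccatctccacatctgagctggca
Nxph1, chr6:8949769-8950068, plus strand: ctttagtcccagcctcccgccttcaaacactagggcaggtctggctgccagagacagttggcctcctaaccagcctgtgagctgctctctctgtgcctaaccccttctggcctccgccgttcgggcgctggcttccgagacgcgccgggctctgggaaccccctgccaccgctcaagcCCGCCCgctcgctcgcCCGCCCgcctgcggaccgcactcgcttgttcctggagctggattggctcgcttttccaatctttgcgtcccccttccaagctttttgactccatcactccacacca
Each window holds 2 GC boxes, the letters that the general activator Sp1 is known to bind, and 35.7% of all 32851 windows of that length hold at least 1. In Cbln4 the 2 boxes, at bases 122 and 127 of the window, overlap by their end letters. The windows are rich in G and C (66.3% in C1ql3, 60.3% in Cbln4 and 64% in Nxph1, against a median of 52.7% over all windows). On either strand none of them holds TATAAA (13.6% of all windows), the homeodomain core TAATTA (5.29%) or the cAMP response element TGACGTCA (1.79%). CCAAT is present in Cbln4 (1 match) and Nxph1 (2 matches) and not in the C1ql3 window (37.4% of all windows), and the E-box CANNTG is in all 3 (72.3%).

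Among the cerebellins, Cbln1 (probe set 1423286_at), the founding member, had values of 9.25, 9.23, 8.76 and 9.81 on the phrenic arrays. It read 11.50, 11.39 and 11.27 on the LMC radial arrays, and 11.68, 11.62, 11.78 and 11.56 on the C3-C5 GFP-only arrays. All phrenic arrays lay at least 1.46 below any other array, while the other types differed little. The log2 difference was -2.40 ± 0.18 (SE) for phrenic against C3-C5 GFP-only neurons, 5.27-fold lower, and -2.13 ± 0.20 for phrenic against LMC radial neurons, 4.36-fold lower. LMC radial and C3-C5 GFP-only neurons differed by -0.27 ± 0.20, with arrays apart by only 0.06 here and overlapping on the other Cbln1 probe sets. The other Cbln1 probe sets gave larger differences for phrenic against C3-C5 GFP-only neurons (-3.47 ± 0.22 and -3.33 ± 0.26) and against LMC radial neurons (-3.21 ± 0.24 and -3.15 ± 0.28). The size of the Cbln1 difference thus depends on the probe set, with the same direction in all 3, and the largest is an 11.1-fold lower signal.

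Cbln2 (probe set 1434779_at), its close relative, had the reverse order. Its signal was 11.12, 11.20, 11.54 and 11.23 on the phrenic arrays, 8.43, 8.50 and 7.91 on the LMC radial arrays, and 10.84, 10.84, 10.86 and 10.39 on the C3-C5 GFP-only arrays. LMC radial neurons stood well below both other types, and phrenic neurons slightly above C3-C5 GFP-only neurons with no overlap. Phrenic neurons were 7.97-fold higher than LMC radial neurons (log2 difference 2.99 ± 0.18) and 1.45-fold higher than C3-C5 GFP-only neurons (0.54 ± 0.17). LMC radial against C3-C5 GFP-only neurons gave -2.46 ± 0.18, or 5.49-fold lower. Only 1 probe set measures Cbln2.

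Cbln4 (probe set 1433607_at), a cerebellin known to bind neurexins as well as the netrin receptor Dcc, was near background in phrenic neurons. Its phrenic values were 3.49, 5.53, 4.77 and 2.46, against 8.22, 8.23 and 8.55 in LMC radial neurons and 7.20, 7.32, 7.19 and 7.19 in C3-C5 GFP-only neurons. The order was phrenic, C3-C5 GFP-only, LMC radial from low to high, and no groups overlapped. Phrenic neurons were at least 9.19-fold lower than LMC radial neurons (log2 difference as measured -4.27 ± 0.56) and at least 4.26-fold lower than C3-C5 GFP-only neurons (-3.16 ± 0.51), and LMC radial neurons 2.16-fold higher than C3-C5 GFP-only neurons (1.11 ± 0.56). The spread of 1.36 (SD, n = 4) in phrenic arrays followed the array sets, with the lower set at 5.53 and 4.77 and the higher set at 3.49 and 2.46. Phrenic against C3-C5 GFP-only neurons was -2.10 within the lower set and -4.22 within the higher set. Both the split and the size of the measured difference therefore move with the array set, and the set's part in it was not tested.

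**Figure D2:**
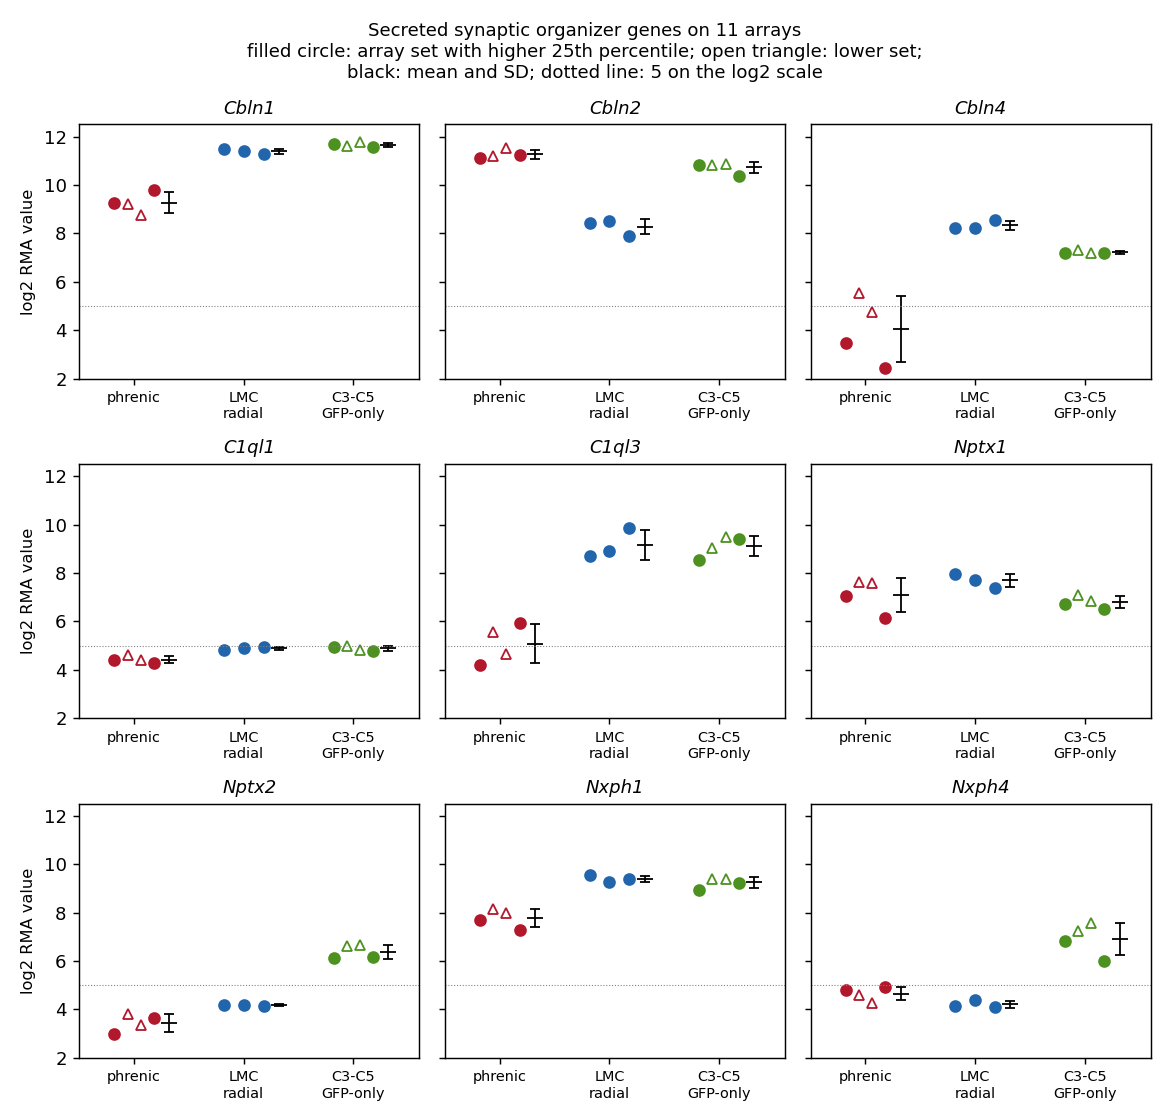
Log2 RMA value (vertical axis) of the 9 measured members on each of the 11 arrays, with phrenic, LMC radial and C3-C5 GFP-only samples from left to right, filled circles for the higher and open triangles for the lower array set, and black bars for mean and SD. Cbln1, Cbln4, C1ql3 and Nxph1 are lowest in phrenic samples, Cbln2 is lowest in LMC radial samples (mean 8.28), and Nptx2 and Nxph4 are above 5 in C3-C5 GFP-only samples alone.

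Of the C1q-like genes, C1ql3 (probe set 1451620_at) had the larger contrast. It read 4.18, 5.56, 4.64 and 5.91 on the phrenic arrays, 8.70, 8.90 and 9.87 on the LMC radial arrays, and 8.54, 9.02, 9.50 and 9.39 on the C3-C5 GFP-only arrays. Every phrenic array lay at least 2.63 below every other array, and the other types overlapped. The differences were -4.04 ± 0.39 for phrenic against C3-C5 GFP-only neurons (16.5-fold lower, or 13.4-fold with values below 5 raised to 5) and -4.09 ± 0.43 for phrenic against LMC radial neurons (17-fold and 13.8-fold lower). LMC radial and C3-C5 GFP-only neurons differed by 0.05 ± 0.43. The C3-C5 difference was about the same within the array sets (-4.16 in the lower and -3.92 in the higher). A second C1ql3 probe set gave -1.60 ± 0.22 and -2.04 ± 0.24 in the same phrenic comparisons, and the third, with means below 5 in all groups, -0.41 ± 0.17 and -0.25 ± 0.18.

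C1ql1 (probe set 1422777_at), known in the brain as the signal of climbing fibres to the Purkinje cell, was below 5 on all 11 arrays. C1ql1 read 4.40, 4.63, 4.39 and 4.28 in phrenic, 4.83, 4.88 and 4.95 in LMC radial and 4.95, 4.99, 4.83 and 4.78 in C3-C5 GFP-only neurons. Its means were 4.42 ± 0.15 (SD, n = 4) in phrenic, 4.89 ± 0.06 (n = 3) in LMC radial and 4.89 ± 0.10 in C3-C5 GFP-only neurons (n = 4). The phrenic arrays lay below the others without overlap, and with values below 5 raised to 5 nothing of the difference remains, so a level above background is not shown in any type.

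The secreted pentraxins also differed from each other. Nptx2 (Narp, probe set 1420720_at), first known as an activity-induced gene, had 2.96, 3.81, 3.35 and 3.64 on the phrenic arrays and 4.19, 4.20 and 4.12 on the LMC radial arrays. Its C3-C5 GFP-only values were 6.10, 6.63, 6.64 and 6.15. C3-C5 GFP-only arrays stood apart from all others, and both other types were below 5. Phrenic and LMC radial neurons were each at least 2.61-fold lower than C3-C5 GFP-only neurons (log2 differences as measured -2.94 ± 0.19 and -2.21 ± 0.21). The gap of -0.73 ± 0.21 between phrenic and LMC radial neurons lies below 5 on both sides and disappears with values below 5 raised to 5. A second Nptx2 probe set stayed at 2.89 to 3.21 on all arrays and showed no difference (-0.04 ± 0.09 for phrenic against C3-C5 GFP-only neurons), so the Nptx2 pattern rests on 1 probe set.

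Nptx1 (probe set 1434877_at) was well above 5 in all types. Its values were 7.07, 7.61, 7.57 and 6.13 on the phrenic arrays, 7.96, 7.72 and 7.40 on the LMC radial arrays, and 6.72, 7.08, 6.84 and 6.51 on the C3-C5 GFP-only arrays. Phrenic arrays overlapped both other types, whereas LMC radial arrays lay above all C3-C5 GFP-only arrays (0.90 ± 0.32, 1.87-fold higher). For phrenic neurons the differences were 0.30 ± 0.29 against C3-C5 GFP-only neurons (-0.02 within the higher array set) and -0.60 ± 0.32 against LMC radial neurons. Without phrenic replicate 4, the lowest of its group, they were 0.63 and -0.28. The second Nptx1 probe set had means below 5 in every type.

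Nxph1 (probe set 1436718_at), a ligand of alpha-neurexins known from inhibitory neurons, was lower in phrenic neurons. Phrenic arrays gave 7.69, 8.13, 7.98 and 7.27, against 9.54, 9.25 and 9.36 for LMC radial and 8.94, 9.40, 9.39 and 9.23 for C3-C5 GFP-only arrays. The phrenic arrays lay at least 0.82 below the rest, and the other types overlapped. Phrenic neurons were 3.07-fold lower than LMC radial neurons (-1.62 ± 0.20) and 2.78-fold lower than C3-C5 GFP-only neurons (-1.47 ± 0.18). All 3 Nxph1 probe sets put the phrenic arrays below the others, with differences from -1.35 to -1.96 against C3-C5 GFP-only neurons and from -1.57 to -1.62 against LMC radial neurons. The probe set with -1.96 (and -1.62 against LMC radial neurons) had a phrenic mean of 3.79, so its folds are given as at least 1.65 and 1.30, and its phrenic and LMC radial arrays were only 0.002 apart.

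Nxph4 (probe set 1429753_at), a relative that also binds neurexins, had the C3-C5 pattern of Nptx2. It read 4.81, 4.59, 4.28 and 4.92 in phrenic, 4.13, 4.38 and 4.10 in LMC radial and 6.82, 7.23, 7.57 and 6.00 in C3-C5 GFP-only neurons. Only the C3-C5 GFP-only arrays were above 5, and phrenic and LMC radial arrays overlapped. Phrenic and LMC radial neurons were each at least 3.75-fold lower than C3-C5 GFP-only neurons (-2.26 ± 0.29 and -2.71 ± 0.31 as measured). Here too the array sets differed. Phrenic against C3-C5 GFP-only neurons gave -2.96 in the lower and -1.55 in the higher set, and the set's part in this was not tested.

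**Figure D3:**
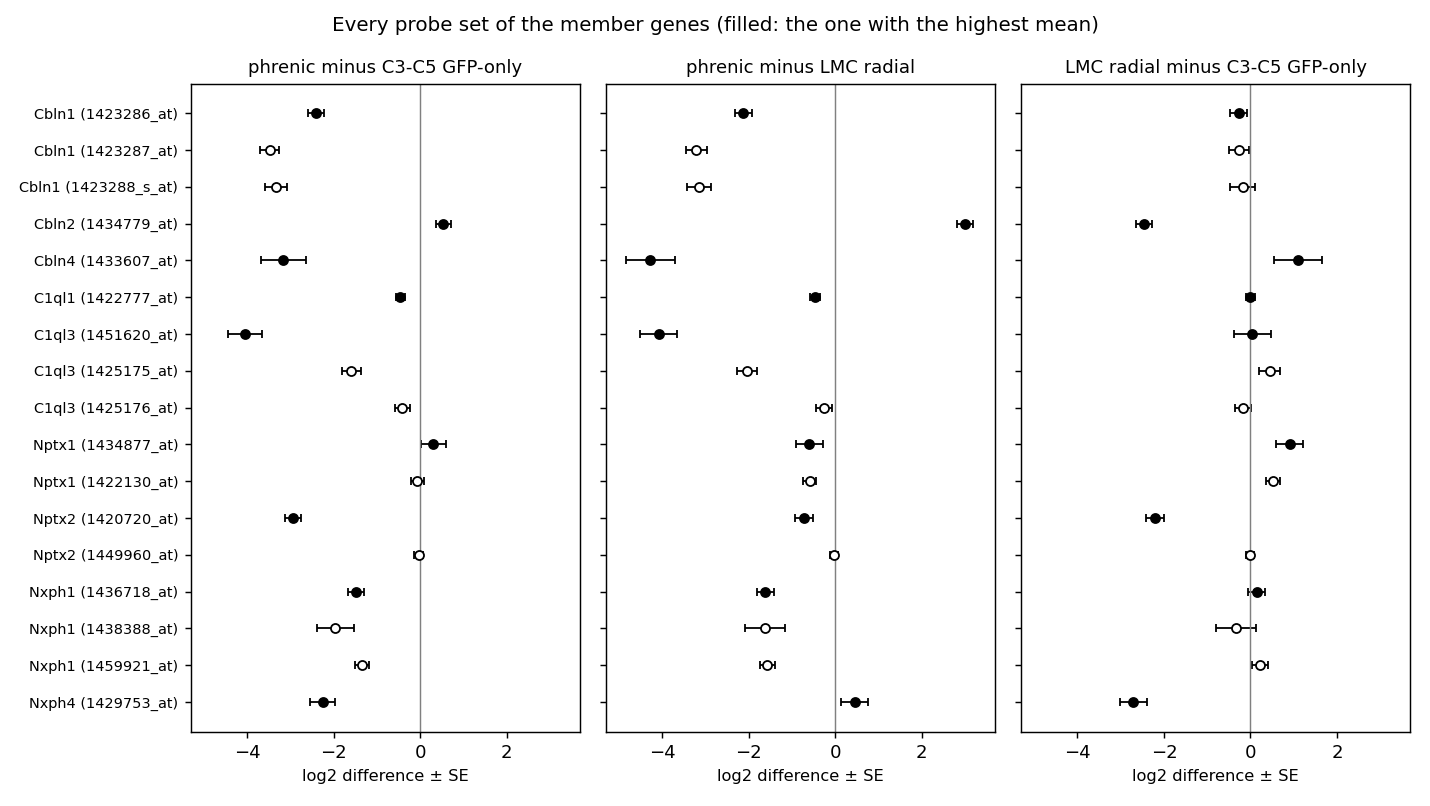
Log2 difference ± SE (horizontal axis) of all 17 probe sets of the members in the 3 comparisons, with filled points for the probe set that stands for the gene. All 3 Cbln1 and all 3 Nxph1 probe sets are below 0 in both phrenic comparisons, the C3-C5 GFP-only signal of Nptx2 is seen by 1 of its probe sets, and Cbln2 is the member farthest above 0 for phrenic minus LMC radial (2.99).

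The array means of the mesenchyme and cycling cell lists were higher in phrenic than in C3-C5 GFP-only samples and overlapped those of LMC radial samples. Of 12 mesenchyme genes 2 and of 4 cycling cell genes 1 passed in limma as higher in phrenic than in C3-C5 GFP-only neurons. At an unadjusted limma p under 0.05 it was 9 and 4, with median log2 differences of 1.48 and 1.65. Between phrenic and LMC radial neurons 0 of either list passed in limma. There 3 and 1 were at an unadjusted limma p under 0.05 in either direction, with medians of 0.53 and 0.75. Their part in the low phrenic values of Cbln1, Cbln4, C1ql3 and Nxph1 was not tested. On phrenic replicate 2, the phrenic array with the lowest mesenchyme mean (5.58), these genes read 9.23, 5.53, 5.56 and 8.13, each below all LMC radial and C3-C5 GFP-only arrays. Without phrenic replicate 4 the differences from C3-C5 GFP-only neurons were -2.58 for Cbln1, -2.63 for Cbln4, -4.32 for C1ql3 and -1.31 for Nxph1. They were -2.31, -3.74, -4.37 and -1.45 in the same order against LMC radial neurons.

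Likeness between genes was measured as the root mean square difference of their values over the 11 arrays, after each gene was centred on its own mean. Among the members, Nptx2 and Nxph4 differed by 0.59, against own spreads about their means of 1.32 and 1.25. Smaller differences were found for C1ql1, below 5 on all arrays, with Nptx1 (0.53) and with Nxph1 (0.56), and for Cbln1 with Nxph1 (0.57). Cbln2 was the farthest from Cbln4 and from C1ql3 (2.97 each). Of all genes that are no members, those nearest to C1ql3, whose own spread about its mean is 2.03, were the type II cadherin Cdh7 (0.61), Pter (0.62) and the LIM-only gene Lmo3 (0.73). Nearest to Cbln4 (own spread 1.94) were the adhesion gene Opcml (0.58), the neuropeptide precursor Cartpt (0.61) and the vesicle protein gene Rph3a (0.62). Nearest to Nxph1 (0.78) were Insig2 (0.15), a regulator of sterol synthesis, Flrt3 (0.25), itself an adhesion protein of synapses, and Dysf (0.27). Nearest to Nptx2 (1.32) were the NMDA receptor subunit gene Grin2c (0.36), Adamtsl3 (0.41) and 9130024F11Rik (0.42). Nearest to Nxph4 (1.25) were Adamtsl3 (0.43), the transcription factor gene Neurod2 (0.44) and Shisa3 (0.44). Adamtsl3 stands on both lists, and its means were 3.75 in phrenic, 3.88 in LMC radial and 5.80 in C3-C5 GFP-only neurons. These likenesses describe 11 arrays that fall into 3 types and are given without a test.

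The receptors and relatives of the members were not used to choose them. They were tested in limma over all 45037 probe sets, with p-values adjusted by Benjamini and Hochberg. Their list was drawn up with earlier results of these data known. Its counts beside the shares of all genes are therefore a description and no independent test. Of 30 such genes 27 had a probe set with 1 symbol, and the others are not analysed here. Between phrenic and C3-C5 GFP-only neurons 1 of 27 was higher and 1 lower (median difference 0.07, against 0.01 over all genes), where 2.74% of all genes passed (1.43% higher and 1.31% lower). Between phrenic and LMC radial neurons 5 were higher and 0 lower (median -0.03, all genes -0.005), where 6.88% passed (3.88% higher and 3% lower). Between LMC radial and C3-C5 GFP-only neurons 1 was higher and 4 lower (median -0.10, all genes 0.01), where 3.73% passed (1.7% higher and 2.03% lower). Over all probe sets the shares that passed were 1.96%, 6.61% and 3.76% in these comparisons, and 3.85% for phrenic, 7.02% for LMC radial and 0.973% for C3-C5 GFP-only neurons with the other types averaged.

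Genes of AMPA receptor subunits, whose proteins pentraxins bind, were among those that changed in each comparison. Gria3 was at 10.53, 10.36, 10.12 and 10.14 on the phrenic arrays, 7.00, 6.66 and 6.76 on the LMC radial arrays, and 9.10, 9.32, 9.37 and 8.97 on the C3-C5 GFP-only arrays. The groups did not overlap, in the order LMC radial, C3-C5 GFP-only, phrenic from low to high. Gria3 was 11.2-fold higher in phrenic than in LMC radial neurons (3.49 ± 0.15, limma adjusted p = 8.75e-07) and 2.14-fold higher than in C3-C5 GFP-only neurons (1.10 ± 0.14, limma adjusted p = 0.00198). LMC radial against C3-C5 GFP-only neurons gave -2.39 ± 0.15 (limma adjusted p = 3.5e-05). Gria2 (0.91 ± 0.16, limma adjusted p = 0.00773) and Gria4 (0.89 ± 0.14, limma adjusted p = 0.00412) rose in phrenic against LMC radial neurons, with no overlap of arrays. Gria4 also fell in LMC radial against C3-C5 GFP-only neurons (-0.63 ± 0.14, limma adjusted p = 0.0344), a call lost when any 1 of 5 arrays was left out (LMC radial replicates 2 and 3, C3-C5 GFP-only replicates 1, 2 and 3; highest limma adjusted p = 0.122). Gria1 passed in no comparison, with means of 6.98 ± 0.14 (SD, n = 4) in phrenic, 7.49 ± 0.75 (n = 3) in LMC radial and 7.90 ± 0.55 in C3-C5 GFP-only neurons (n = 4).

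For Nrxn2 and Nrxn3, genes of neurexins, the family that binds cerebellins and neurexophilins, no test passed. Nrxn2 averaged 11.39 ± 0.19 (SD, n = 4) in phrenic, 11.49 ± 0.08 (n = 3) in LMC radial and 11.15 ± 0.31 in C3-C5 GFP-only neurons (n = 4). Nrxn3 averaged 6.84 ± 0.30, 7.14 ± 0.33 and 7.61 ± 0.57 in the same order of groups, and phrenic against C3-C5 GFP-only neurons gave -0.78 ± 0.27 (limma adjusted p = 0.219). The delta receptor gene Grid1 averaged 7.79 ± 0.17 in phrenic, 7.86 ± 0.16 in LMC radial and 7.55 ± 0.09 in C3-C5 GFP-only neurons and passed in no comparison (LMC radial against C3-C5 GFP-only neurons, 0.31 ± 0.12, limma adjusted p = 0.193).

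Adgrb3, the receptor of C1q-like proteins, did not pass either. It averaged 8.37 ± 0.70 (SD, n = 4) in phrenic, 8.79 ± 0.09 (n = 3) in LMC radial and 8.71 ± 0.05 in C3-C5 GFP-only neurons (n = 4), and its difference was -0.34 ± 0.27 for phrenic against C3-C5 GFP-only neurons (limma adjusted p = 0.701). Its relative Adgrb2 had the pattern of Nptx2 and Nxph4, with 4.33, 4.70, 4.85 and 4.78 in phrenic, 4.80, 5.01 and 5.21 in LMC radial and 6.55, 6.30, 6.15 and 5.81 in C3-C5 GFP-only neurons. Both other types lay below all C3-C5 GFP-only arrays. Adgrb2 was at least 2.30-fold lower in phrenic (-1.54 ± 0.17, limma adjusted p = 0.00107) and 2.29-fold lower in LMC radial than in C3-C5 GFP-only neurons (-1.20 ± 0.19, limma adjusted p = 0.00707).

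Grik2, a kainate receptor subunit that C1q-like proteins are known to bind in the hippocampus, was higher in LMC radial than in C3-C5 GFP-only neurons (1.27 ± 0.23, limma adjusted p = 0.0136), a call lost without LMC radial replicate 1 (limma adjusted p = 0.0605) or LMC radial replicate 2 (limma adjusted p = 0.0558). Phrenic against LMC radial neurons gave -0.82 ± 0.23 for Grik2, which did not pass (limma adjusted p = 0.0577). It passed without phrenic replicate 4 (-1.05, limma adjusted p = 0.00182). Dcc was higher in phrenic than in LMC radial neurons (0.77 ± 0.13, limma adjusted p = 0.00466) and lower in LMC radial than in C3-C5 GFP-only neurons (-0.64 ± 0.13, limma adjusted p = 0.0207). The second Dcc call was lost when any 1 of 5 arrays was left out, LMC radial replicates 2 and 3 and C3-C5 GFP-only replicates 2, 3 and 4 (highest limma adjusted p = 0.0767). Ca11, a carbonic anhydrase-related protein gene, was higher in phrenic than in LMC radial neurons (0.81 ± 0.19, limma adjusted p = 0.0279), a call lost when any 1 of 4 arrays was left out, replicates 2 and 3 of both groups (highest limma adjusted p = 0.111). The paralogs C1ql2, Cbln3, Nxph2 and Nxph3 had means below 5 in every type, and none passed.

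**Figure D4:**
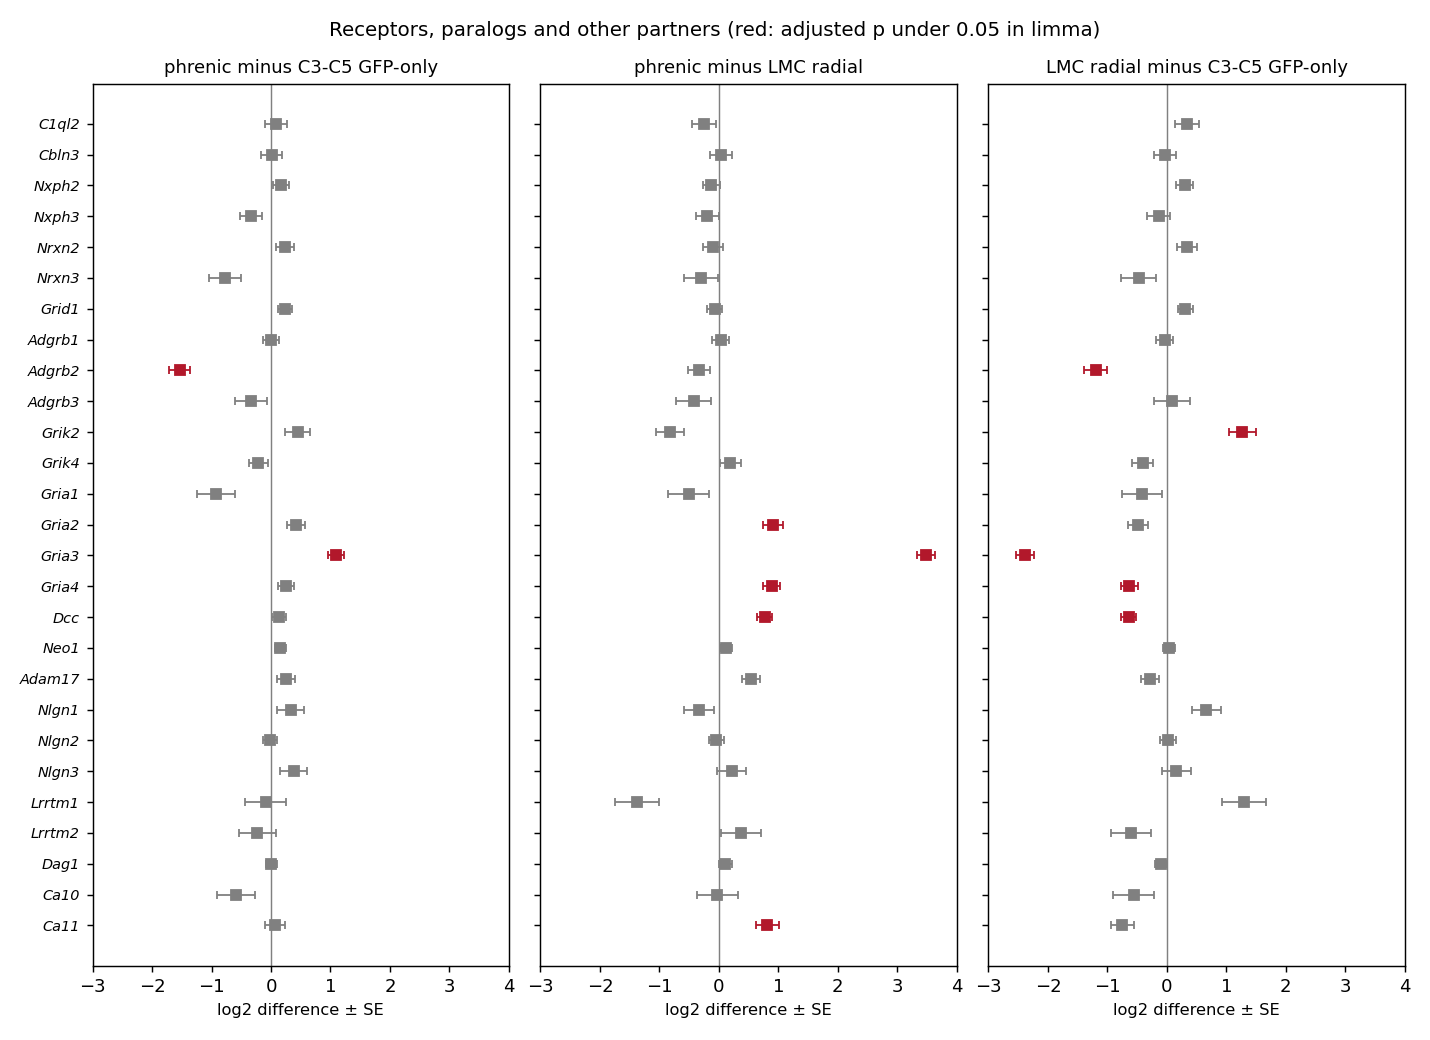
Log2 difference ± SE (horizontal axis) of 27 receptors, paralogs and other partners in the 3 comparisons, in red where limma's adjusted p was under 0.05. Gria3 is farthest from 0 for phrenic minus LMC radial (3.49), and Adgrb2 is below 0 in both comparisons with C3-C5 GFP-only neurons (-1.54 and -1.20).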

How the data were processed

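The deposited values are log2 signals, 1 per probe set and array, made by the authors with RMA per the submitters' processing notes. The software version is not given in the sources used here, and precision is set by how few arrays there are. Samples were grouped by their titles. The 64 control probe sets were left out, and 45037 were tested, of which 34945 had 1 gene symbol, 932 several and 9160 none. A linear model with a mean per cell type was fitted to all 11 arrays in limma 3.58.1 (R 4.3.3), with moderated two-sided tests (8 residual and 2.92 prior degrees of freedom), Benjamini-Hochberg adjustment over all probe sets within each of 6 comparisons, and a threshold of 0.05. The 6 are the 3 pairs of types and each type against the mean of the others.

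The members and gene lists were chosen with earlier results of these data known. Named genes are all members, partner genes that passed in a pair of types, Nrxn2, Nrxn3, Grid1, Adgrb3 and the AMPA subunits, the 3 genes nearest to each of 5 members, and the markers Chat, Mnx1 and Isl1. Isl2 and 4 paralogs that passed in no comparison are named beyond that rule, after their values were seen. P-values measure the spread between arrays, which may be technical. Promoter sequences are from RefSeq. The model was tested on simulated data. Alternatives were quantile normalization, median centring, leaving out probe sets with a mean below 5, raising values below 5 to 5, another variance prior, array weights, a block for replicate number, array sets, fits of 2 types, means over probe sets and leaving out each array. The lower array set alone was added after seeing the data.

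Phrenic and C3-C5 GFP-only arrays of the same replicate number deviated from their group means together (correlations over probe sets 0.125 to 0.224 in 4 pairs), by the data and not by any label. Pairs of other numbers within an array set did so as much (0.179 to 0.28), and those across sets did not (-0.254 to -0.125). Deviations cancel within a group and the sets were cut from these same arrays, so the signs within and across sets are not independent. With LMC radial arrays the same number gave -0.0835 to 0.0499.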

Additional observations from a re-analysis of the deposited data

Results flagged for a closer look

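In 4 of 42 groups of 4 arrays, 1 array stood apart from the other 3 by Dixon's test, against 2.1 expected at the 5% that chance gives. Cbln2 was 10.39 on C3-C5 GFP-only replicate 4, against 10.84 to 10.86 on the others. Cbln4 was 7.32 on C3-C5 GFP-only replicate 2, against 7.19 to 7.20. Nrxn2 was 11.62 on C3-C5 GFP-only replicate 1, against 10.96 to 11.03. Adgrb3 was 7.32 on phrenic replicate 4, the array with the highest mesenchyme list, against 8.66 to 8.76 on the other phrenic arrays.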

How the results depend on the processing

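Of 597 member differences under the alternatives, 570 moved by less than the spread between arrays and 27 by more. None of those that exceeded that spread changed sign. Many of the 570 were fixed in advance, so this count does not measure stability. Another variance prior, a fit of 2 types or leaving out an array of a type outside the comparison cannot move a difference. Among the 27, for phrenic against C3-C5 GFP-only neurons, means over probe sets shrank the C1ql3 and Nptx2 differences and enlarged that of Cbln1. Values below 5 raised to 5 moved C1ql1, Cbln4 and Nptx2, and single array sets moved Cbln1, Cbln4 and Nxph4. Of 792 values of partner genes, 34 lost and 13 gained a call, and no call changed sign. The other 745 stayed on their side of the threshold, which includes values that passed in neither fit. That count therefore does not measure how many calls were kept. C1ql1 and Nptx2 have no value once dim probe sets are left out, and with values below 5 raised to 5 their phrenic minus LMC radial difference is 0. Partner calls numbered 2 for phrenic against C3-C5 GFP-only, 5 for phrenic against LMC radial and 5 for LMC radial against C3-C5 GFP-only neurons. Within the higher array set they were 0 (limma, with 5 of 27 at an unadjusted p under 0.05), 3 and 1. In the last comparison they were 3 with values below 5 raised to 5 and 9 with array weights. With single arrays left out they were 2 to 2, 4 to 6 and 2 to 6, the 2 without LMC radial replicate 2, and 3 without LMC radial replicate 3 or C3-C5 GFP-only replicates 2 or 3.

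Over all probe sets, phrenic against C3-C5 GFP-only gave 882 calls, 516 with values below 5 raised to 5, 127 within the higher set and 458 to 1240 with single arrays left out. Phrenic against LMC radial gave 2979, and 1847 without dim probe sets, 1046 with the floor of 5, 778 within the higher set, 1410 from a fit of 2 types and 1678 to 4266 with single arrays left out. For LMC radial minus C3-C5 GFP-only there were 1694, and in the same order 761, 382, 98, 3676 and 606 to 2654, with 6685 under array weights and 840 with the array set as a block. Against the mean of the other types, phrenic gave 1733 (1035 with the floor, 511 within the higher set, 1202 to 2368 with single arrays left out). LMC radial gave 3163 (1555 without dim probe sets, 782 with the floor, 6864 with array weights, 1550 with the set as a block, 551 within the higher set, 1573 to 4746 with single arrays left out). C3-C5 GFP-only gave 438 (200 with the floor, 1758 with array weights, 24 within the higher set, 119 to 654 with single arrays left out). Among fits with 1 array left out, the highest count in each comparison was that without phrenic replicate 4, which moved it over 1.5 times for LMC radial minus C3-C5 GFP-only (2654) and LMC radial minus the others (4746). Counts fell over 1.5 times without C3-C5 GFP-only replicate 2, 3 or 4 for phrenic minus C3-C5 GFP-only (499, 458, 540) and C3-C5 GFP-only minus the others (135, 119, 215). Without LMC radial replicate 1, 2 or 3 they did so for phrenic minus LMC radial (1750, 1678, 1799), LMC radial minus C3-C5 GFP-only (763, 807, 993) and LMC radial minus the others (1573, 1580, 1621), and without the first 2 of these for C3-C5 GFP-only minus the others (215, 244). C3-C5 GFP-only replicates 2 and 3 did so for LMC radial minus C3-C5 GFP-only (699, 606) and LMC radial minus the others (2096, 1960). The cause was not tested, beyond fewer arrays or probe sets where those were left out.

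With the replicate number as a block the counts over all probe sets were 862, 3537 and 2401 in the pairs of types in the order above and 1795, 4029 and 498 against the mean of the others, and the partner counts 2, 6 and 6. The block changed no partner call for phrenic against C3-C5 GFP-only neurons. Median centring moved the median of all probe sets from -0.01 to -0.10 for phrenic against LMC radial neurons.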
